A study of Mus musculus with 20 samples.

Results

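The lung metastasis line L1P was compared with the primary tumor line M1P, gene by gene, in 2 RNA sequencing libraries of each line. A gene was included if it had at least 1 CPM (a count scaled to 1e6 reads of the library, the unit of the deposited values) in 2 of these 4 libraries, which kept 14040 of the 54986 genes in the table, 10845 of them protein-coding. The study followed the epithelial-mesenchymal transition (EMT) and long noncoding RNAs along a mouse model of breast tumor progression, and its 20 libraries also cover TGFβ treatment and the silencing or overexpression of Platr18. All lines derive from NMuMG, an epithelial line from normal mouse mammary gland. E1KD is NMuMG with an shRNA against hnRNP E1, the RNA-binding protein encoded by Pcbp1. E1KD cells were injected into the mammary fat pad of NOD/SCID mice, which lack functional T and B cells, and the cells grown out of the primary tumor gave M1P and those grown out of the lung metastases gave L1P. Both lines therefore carry the hnRNP E1 shRNA, and both express puromycin resistance as a selection marker. RNA was taken from flat cultures in DMEM with 10% serum, not from tissue. Each line is a single established line here, so a difference between the lines and a difference between the lung and the mammary site cannot be told apart. Nothing states that the 2 libraries of a line came from separate cultures. Every p-value below measures only the spread between libraries of the same group, taken over all 10 groups of the series, E1KD among them.

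Metastatic cells leave the primary tumor, enter the circulation and grow again in another organ, and lines from both sites are a usual way to look for expression that differs between them. EMT, in which epithelial cells lose junctions and keratins and gain fibronectin and vimentin, is the program most often followed along this path. Mammalian cells also tune their own cholesterol synthesis: when sterols in the endoplasmic reticulum run low, the transcription factor SREBP2 is released to the nucleus and turns on the enzymes of the mevalonate and sterol pathway together, while SREBP1 favors fatty acid genes.

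Pcbp1, the silenced gene, was at 28.6 and 30.5 CPM in L1P and 26.5 and 27.6 CPM in M1P, against 16.6 and 14.2 CPM in E1KD and 287 and 312 CPM in NMuMG. It was low in every library of the 3 silenced lines, and its L1P and M1P levels were not called different (adjusted p = 0.395, limma). The smallest step between low values puts 51.0 and 51.5 M reads (M, 1e6) behind the L1P libraries and 57.3 and 56.4 M behind the M1P libraries, so 3 reads on a gene are worth 0.0524 to 0.0589 CPM. The listed CPM sum to 563239 and 563478 in L1P and 568499 and 568666 in M1P, so the 2 lines are on nearly the same scale. The E1KD libraries were less alike, with sums of 728651 and 567414 and a median log2 ratio of 0.29 between them, so each E1KD value is given per library. Of 12 endothelial markers 1 was a member of the comparison, of 18 macrophage and neutrophil markers 3, of 12 fibroblast and mural markers 2, and of the 10 adipocyte and 13 lymphocyte and erythroid markers 0. The summed level of the lymphocyte and erythroid markers was 0.158 to 0.356 CPM, that of the macrophage and neutrophil markers 87.7 to 108 CPM. Cd14 made up most of the latter and was also at 96.6 and 86.1 CPM in E1KD, while Adgre1, Tyrobp, C1qa and C1qc had 0 reads. Lyz2, another member of this list, did not exceed 0.276 CPM in E1KD. Its lower M1P library had 2.87 CPM and its lower L1P library 4.57 CPM. Cd68, also a member, was lower in L1P (at most 2.06 CPM) than in M1P (at least 2.57 CPM). Which cells the Lyz2 reads came from was not tested. The endothelial sum of 35.8 to 54.9 CPM came almost wholly from Flt1, a VEGF receptor, which was also at 22.9 and 18.6 CPM in cultured E1KD, while Pecam1, Cdh5, Kdr and Tek reached at most 0.23 CPM. Lung epithelial markers numbered 5 members of 14, with sums of 95.8 to 96.9 CPM in L1P and 82.4 to 83.4 CPM in M1P. The 5 were Abca3, Foxj1, Lamp3, Aqp5 and Rtkn2, which were also expressed in E1KD, and the surfactant genes Sftpa1, Sftpc and Sftpd and the club cell gene Scgb1a1 had 0 reads in L1P and M1P. Xist, the long noncoding RNA of the inactive X, was at 0.059 and 0.0583 CPM in L1P and 0.0699 and 0.0355 CPM in M1P, and at 857 and 758 CPM in E1KD, so this difference separates both tumor lines from their parent and does not separate them from each other. In bulk libraries, fewer cells with a transcript and less of it per cell cannot be told apart.

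Of the 14040 genes, 206 were called, 127 higher and 79 lower in L1P, where a call needs p under 0.001 together with a log2 fold change of 1 or more in size (limma on log2(CPM + 1)). Over all 17106 genes tested in the series, 1.21% were called in this comparison, 0.742% higher and 0.468% lower. Of the 10845 protein-coding genes, 183 were called, 114 higher and 69 lower. The difference between the lines was shallow for most genes: 12999 genes, or 92.6%, had an absolute log2 fold change under 0.5, and the median was 0.03. The libraries of a line lay so close together that the L1P and M1P values did not overlap in 77.8% of the genes and in 206 of the 206 called, beside 70.5% of all genes tested. For any single gene, 2 libraries per line limit an exact permutation test to p = 0.333 or more (two-sided), so the calls rest on the spread pooled over 10 groups. Because the fold change is taken after adding 1 to each CPM, it understates low genes, and the count moves with that number, to 356 calls when 0.1 was added and to 69 when 5 was added. The 1 CPM limit was passed through L1P alone by 190 genes, 28 of them called, and through M1P alone by 131 genes, 24 of them called. These had to differ in that direction, so the counts over the 13464 genes at 1 CPM or more in all 4 libraries are also given: 144 called, 94 higher and 50 lower. Each called gene named below that was under 1 CPM in both libraries of 1 line likewise could only differ in 1 direction.

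**Figure D1:**
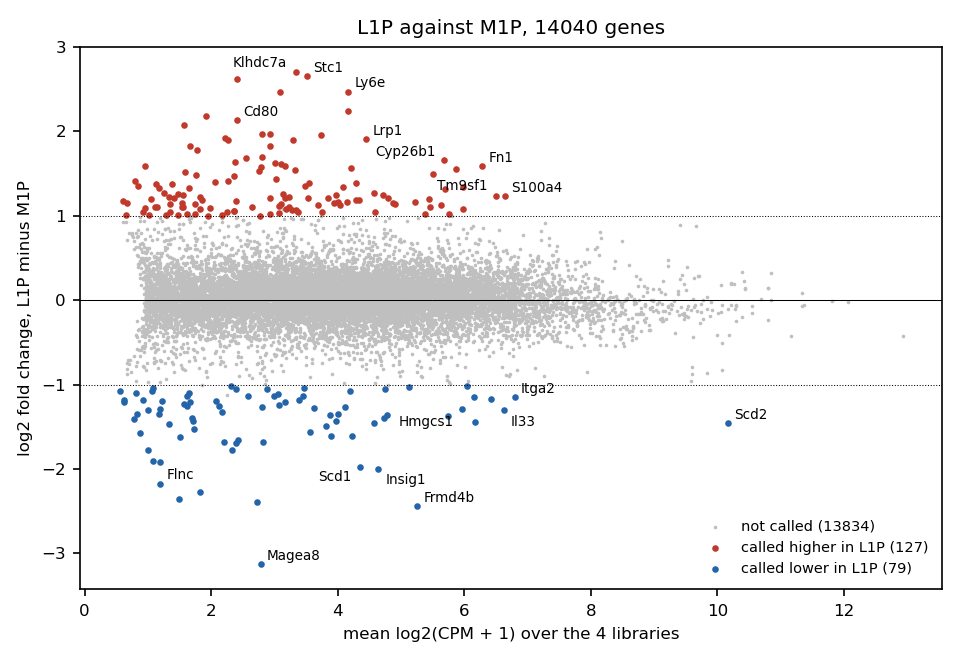
Each point is 1 of the 14040 genes, with its mean log2(CPM + 1) over the 4 libraries on the x axis and its log2 fold change (L1P minus M1P) on the y axis. Red points are the 127 genes called higher in L1P and blue points the 79 called lower, dotted lines mark log2 fold changes of 1 and −1, and most genes lie close to 0.

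The protein-coding genes with the largest increase in L1P were Klhdc7a, Stc1 and Ly6e. Klhdc7a, which encodes a kelch domain protein, was at 23.6 and 26 CPM in L1P and 3.0 and 2.89 CPM in M1P (log2 fold change 2.71, SE 0.072). Stc1, the secreted glycoprotein stanniocalcin 1, was at 27.8 and 27.8 CPM in L1P and 3.68 and 3.46 CPM in M1P (log2 fold change 2.66, SE 0.075). Ly6e, a GPI-anchored surface protein induced by interferon, was at 42.4 and 40.1 CPM in L1P and 6.02 and 7.25 CPM in M1P (log2 fold change 2.47, SE 0.095). These genes reached L1P levels from different sides: Klhdc7a was at 33.2 and 33 CPM in NMuMG, Ly6e was low in NMuMG and at 85.7 and 70.00 CPM in E1KD, and Stc1 did not pass 1.43 CPM in the NMuMG and E1KD libraries.

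Ly6e shares its stretch of chromosome 15 with Lynx1, Ly6a and Ly6c1, relatives in the Ly6 family of small GPI-anchored proteins, and these were 4 neighboring expressed genes in a row with a log2 fold change of at least 0.8. Ly6a, known as Sca-1 and used as a marker of mammary progenitors, was at 24.9 and 25.7 CPM in L1P and 5.32 and 6.22 CPM in M1P (log2 fold change 1.96, SE 0.10). Ly6c1 was at 12.9 and 12.3 CPM in L1P and 4.96 and 4.41 CPM in M1P (log2 fold change 1.25, SE 0.095), though its transcript is 97.6% identical over 822 bases to that of Ly6c2, so reads could have been split between the copies. In NMuMG, both Ly6a and Ly6c1 stayed at or below 0.151 CPM, and in E1KD they were at 45.4 and 35.2 CPM and 25.9 and 19.9 CPM. Among 27 S100 and Ly6 genes listed, 13 were members and 4 were called, all higher, beside 0.742% of all genes called higher, with a median log2 fold change of 0.31 beside 0.03 over all members. S100a4, a calcium-binding protein long used as a marker of metastatic and mesenchymal cells, was the fourth of them, at 151 and 152 CPM in L1P and 63.2 and 64.7 CPM in M1P.

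Some of the genes called higher encode surface receptors and adhesion molecules. Lrp1, a large endocytic receptor, was at 41.5 and 41.3 CPM in L1P and 10.4 and 10.2 CPM in M1P (log2 fold change 1.91, SE 0.20). Fgfr2, a receptor of fibroblast growth factors, was at 9.43 and 9.63 CPM in L1P and 2.25 and 2.29 CPM in M1P (log2 fold change 1.69, SE 0.11). The entry of Fgfr2 runs from 130162451 to 133123350 on chromosome 7. It overlaps other members, among them Ate1 and Ctbp2 on the same strand, so reads from the shared bases could belong to those genes. Cd80, a costimulatory ligand best known from antigen-presenting cells, was at 10.7 and 9.67 CPM in L1P and 1.29 and 1.83 CPM in M1P (log2 fold change 2.14, SE 0.12). In each of them the lower L1P library was more than 3 times above the higher M1P library. Adgrg6, an adhesion G protein-coupled receptor, was among the most abundant of the called genes at 97.9 and 100.2 CPM in L1P and 32.9 and 33.3 CPM in M1P. Vcam1, a ligand of integrin α4β1, was at 18.6 and 17.5 CPM in L1P and 7.77 and 7.62 CPM in M1P, and the water channel Aqp1 was at 18 and 18 CPM in L1P and 4.28 and 3.92 CPM in M1P. Sorl1, a sorting receptor of the same family as Lrp1, was at 5.4 and 5.32 CPM in L1P and 0.82 and 0.886 CPM in M1P. Within this group E1KD levels varied, with 75.6 and 40.1 CPM for Lrp1, 15.8 and 11.7 CPM for Fgfr2 and 1.65 and 0.979 CPM for Cd80.

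Matrix and secreted factors were also among the genes called higher. Fn1, the fibronectin gene and a standard EMT marker, was at 135 and 135 CPM in L1P and 43.8 and 44 CPM in M1P (log2 fold change 1.59, SE 0.17, adjusted p = 1.77e-05, limma). Col6a1, a chain of collagen VI, was at 25.9 and 24.9 CPM in L1P and 10.5 and 11.1 CPM in M1P (log2 fold change 1.16, SE 0.13), and its partner and neighbor Col6a2 was at 3.47 and 3.22 CPM in L1P and 1.2 and 1.38 CPM in M1P without reaching the fold limit (log2 fold change 0.92). Tnxb, the matrix protein tenascin X, was at 98.9 and 99.7 CPM in L1P and 38.6 and 38.5 CPM in M1P. All 3 called genes of this group were lower in NMuMG than in either tumor line, with Fn1 at 10.8 and 10.5 CPM there. Cxcl1, a chemokine that attracts neutrophils, was at 40.2 and 39 CPM in L1P and 16.9 and 15.3 CPM in M1P. Uts2b, a urotensin II peptide, was at 7.87 and 8.31 CPM in L1P and 1.45 and 1.36 CPM in M1P.

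Other genes called higher encode enzymes and transcription factors. Cyp26b1, which degrades retinoic acid, was at 90.3 and 90.4 CPM in L1P and 28.8 and 27.2 CPM in M1P (log2 fold change 1.66, SE 0.092), with 2.67 and 2.47 CPM in NMuMG. Padi1, which converts arginine in proteins to citrulline, was at 12.7 and 13.1 CPM in L1P and 2.45 and 2.62 CPM in M1P (log2 fold change 1.97, SE 0.12). Car12, a carbonic anhydrase at the cell surface, was at 3.89 and 4.1 CPM in L1P and 0.855 and 1.12 CPM in M1P. In Cyp26b1 the L1P level was above that of every other line of the progression, while for Padi1 the E1KD libraries, at 37.2 and 31.5 CPM, were higher still. The neighboring carboxylesterases Ces2f and Ces2g were called together, with Ces2g at 25.9 and 26 CPM in L1P and 9.44 and 9.87 CPM in M1P. Among transcription factors, Egr1, an immediate early gene, was at 12.3 and 12.4 CPM in L1P and 4.24 and 3.65 CPM in M1P, and Atoh8, a basic helix-loop-helix factor, was at 8.56 and 8.06 CPM in L1P and 1.47 and 1.52 CPM in M1P. Zfp518b, a zinc finger gene, was at 18.9 and 19.2 CPM in L1P and 2.48 and 2.8 CPM in M1P, and had 0 reads in each NMuMG library.

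Among the genes lower in L1P, Magea8 had the largest change of all 206. Magea8, a cancer-testis gene of the MAGE family on the X chromosome (154985775 to 154995850, GRCm38), was at 1.51 and 1.15 CPM in L1P and 19.1 and 19.6 CPM in M1P (log2 fold change −3.13, SE 0.079). Frmd4b, a scaffold protein with a FERM domain, was at 14.7 and 16.1 CPM in L1P and 87.3 and 88 CPM in M1P (log2 fold change −2.44, SE 0.077). Tatdn3, a putative DNase, was at 1.79 and 1.96 CPM in L1P and 14.2 and 14.1 CPM in M1P (log2 fold change −2.4, SE 0.12). In these 3 genes M1P stood apart: E1KD, the parent of both lines, was at 1.28 and 0.979 CPM for Magea8, 15.4 and 12.9 CPM for Frmd4b and 2.32 and 1.42 CPM for Tatdn3, close to the L1P level. Clca4a, a chloride channel regulator, had the same profile with 0.314 and 0.186 CPM in L1P and 5.64 and 5.15 CPM in M1P.

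Flnc, Gcnt1 and Shank2 had another profile, with the highest levels before the tumor. Flnc, the actin cross-linker filamin C, was at 153 and 91.4 CPM in E1KD, and at 0.0786 and 0.0778 CPM in L1P and 4.07 and 3.67 CPM in M1P (log2 fold change −2.17, SE 0.19). Gcnt1, a glycosyltransferase that builds core 2 O-glycans, was at 85.2 and 83.6 CPM in NMuMG and 17.7 and 15.4 CPM in E1KD, and at 0.628 and 0.583 CPM in L1P and 6.77 and 6.75 CPM in M1P (log2 fold change −2.27, SE 0.067). Shank2, a scaffold of postsynaptic and epithelial membranes, was at 49.7 and 42.8 CPM in E1KD and at 1.73 and 1.73 CPM in L1P and 7.8 and 8.86 CPM in M1P. The L1P value of Flnc stands for about 4 reads per library. Renbp, Ms4a4d and Tmem56 were lower too, between 2.67 and 3.47 CPM in M1P and no higher than 0.236 CPM in L1P.

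**Figure D2:**
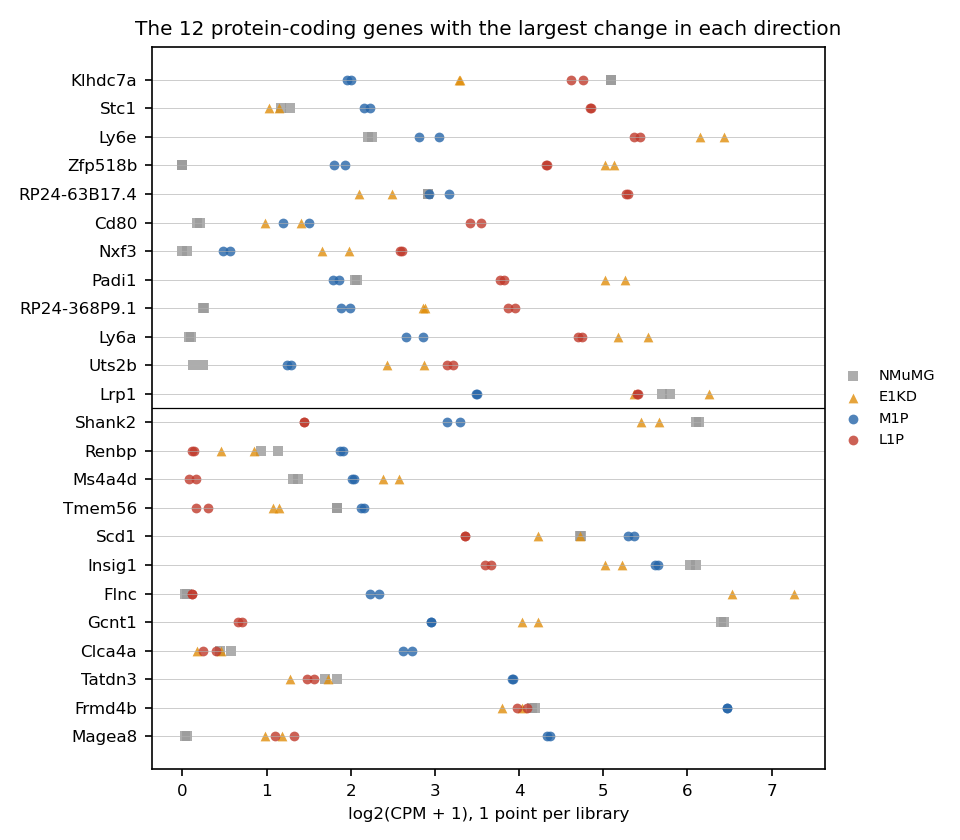
Points give log2(CPM + 1) of each library of NMuMG, E1KD, M1P and L1P for the 12 protein-coding genes with the largest increase (above the line) and the 12 with the largest decrease (below it) in L1P against M1P. The 2 libraries of M1P and of L1P lie close together for each gene, while the position of E1KD relative to them changes from gene to gene.

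Several signaling and immune genes were among those called lower. Il33, an alarmin cytokine of the IL-1 family, was at 62.9 and 61.5 CPM in L1P and 156 and 153 CPM in M1P (log2 fold change −1.3, SE 0.074), and Itga2, the α2 subunit of a collagen receptor, was at 73.6 and 73.3 CPM in L1P and 167 and 162 CPM in M1P (log2 fold change −1.15, SE 0.073). Both were abundant, and both were lower in E1KD than in M1P, at 47.5 and 39.99 CPM and 68.3 and 56.5 CPM. Fgf13, an intracellular FGF family protein, was at 10.1 and 9.42 CPM in L1P and 33.3 and 30.3 CPM in M1P, and Hs6st2, a heparan sulfate 6-O-sulfotransferase, was at 7.55 and 7.38 CPM in L1P and 24.6 and 25.1 CPM in M1P. Mmp13, a collagenase, was at 1.41 and 1.75 CPM in L1P and 7.58 and 6.88 CPM in M1P, and Nt5e, the ectonucleotidase CD73, was at 3.34 and 2.56 CPM in L1P and 11.3 and 11.9 CPM in M1P. Of the TGFβ superfamily ligands, Bmp2 was at 0.432 and 0.505 CPM in L1P and 1.97 and 2.06 CPM in M1P, and Nodal was at 1.40 and 1.28 CPM in M1P with 0 and 1 read in the L1P libraries. Genes with 3 reads or fewer in both libraries of a line numbered 4 of the 206, namely Gda in M1P and Nodal, Rhox2h and RP23-453N3.4 in L1P, so their fold changes depend on the number added before the log. Sema4f, the semaphorin that the study follows, was at 1.16 and 1.01 CPM in L1P and 3.75 and 3.86 CPM in M1P (log2 fold change −1.21, SE 0.11).

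Genes of cholesterol and fatty acid synthesis were lower in L1P as a group. Of 33 genes listed, 32 were members, and 13 of the 32 were called lower and 0 higher, beside 0.468% of all genes called lower. All 32 had a negative log2 fold change, and 28 had an adjusted p under 0.05 (limma), beside 7.3% of all genes tested that were lower at this limit. All 32 had libraries that did not overlap, beside 70.5% of all genes tested. Their median log2 fold change was −0.90, beside 0.03 over all members, and their summed level was 1827 and 1827 CPM in L1P and 3850 and 3885 CPM in M1P. The 32 genes lie on 15 chromosomes. Without the 4 on chromosome 19, where most genes were lower (below), the median was −0.89, with 10 of 28 called.

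At the head of the mevalonate pathway, Hmgcs1, which makes HMG-CoA, was at 38.9 and 39.1 CPM in L1P and 98.2 and 95.1 CPM in M1P (log2 fold change −1.29, SE 0.098). Of the following steps, Idi1 was at 16.4 and 16.1 CPM in L1P and 43.5 and 42.7 CPM in M1P and Fdps at 8.69 and 8.41 CPM in L1P and 23 and 26.4 CPM in M1P. The squalene steps Fdft1 and Sqle were also called, with Sqle, the epoxidase, at 47.8 and 45.7 CPM in L1P and 104 and 105 CPM in M1P. Further down, Msmo1, a sterol methyl oxidase, was at 32.3 and 32.7 CPM in L1P and 85.2 and 85.6 CPM in M1P (log2 fold change −1.37, SE 0.099), and Nsdhl was at 10.2 and 10.2 CPM in L1P and 25.8 and 26 CPM in M1P. Lss, Cyp51 and Dhcr7, which also act after squalene, were lower by 0.59 to 1.00 on the log2 scale without being called. Calls were thus spread from the start of the pathway to its late steps.

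Regulators of the pathway were on the same list. Insig1, which holds the SREBP-SCAP complex in the endoplasmic reticulum and is itself an SREBP target, was at 11.7 and 11.1 CPM in L1P and 47.8 and 49.4 CPM in M1P (log2 fold change −2.0, SE 0.074, adjusted p = 4.13e-10, limma). Srebf2, the gene for SREBP2, was at 103 and 106 CPM in L1P and 181 and 183 CPM in M1P (log2 fold change −0.8), below the fold limit. Srebf1 was at 38.8 and 39.7 CPM in L1P and 46.9 and 47.9 CPM in M1P, and did not pass (adjusted p = 0.339, limma).

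The fatty acid genes divided. Scd2, a stearoyl-CoA desaturase and the most abundant of the 206 called genes, was at 694 and 685 CPM in L1P and 1889 and 1907 CPM in M1P (log2 fold change −1.46, SE 0.076), and Scd1 was at 9.24 and 9.28 CPM in L1P and 38.4 and 40.3 CPM in M1P (log2 fold change −1.97, SE 0.18). Their transcripts share 623 bases at 95.5% identity, so some reads could be assigned to either. Fads1, a desaturase of polyunsaturated fatty acids, was at 55.7 and 56.4 CPM in L1P and 127 and 128 CPM in M1P. Chain-building enzymes gave much smaller differences: Fasn, the fatty acid synthase, was at 251 and 262 CPM in L1P and 263 and 271 CPM in M1P, Acaca at 29.9 and 30.3 CPM in L1P and 35.2 and 38.6 CPM in M1P and Acly at 54.1 and 52.6 CPM in L1P and 60.7 and 59.7 CPM in M1P, with adjusted p of 0.937, 0.143 and 0.6 (limma). Among the desaturases Fads2 was not called either, with a log2 fold change of −0.91.

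**Figure D3:**
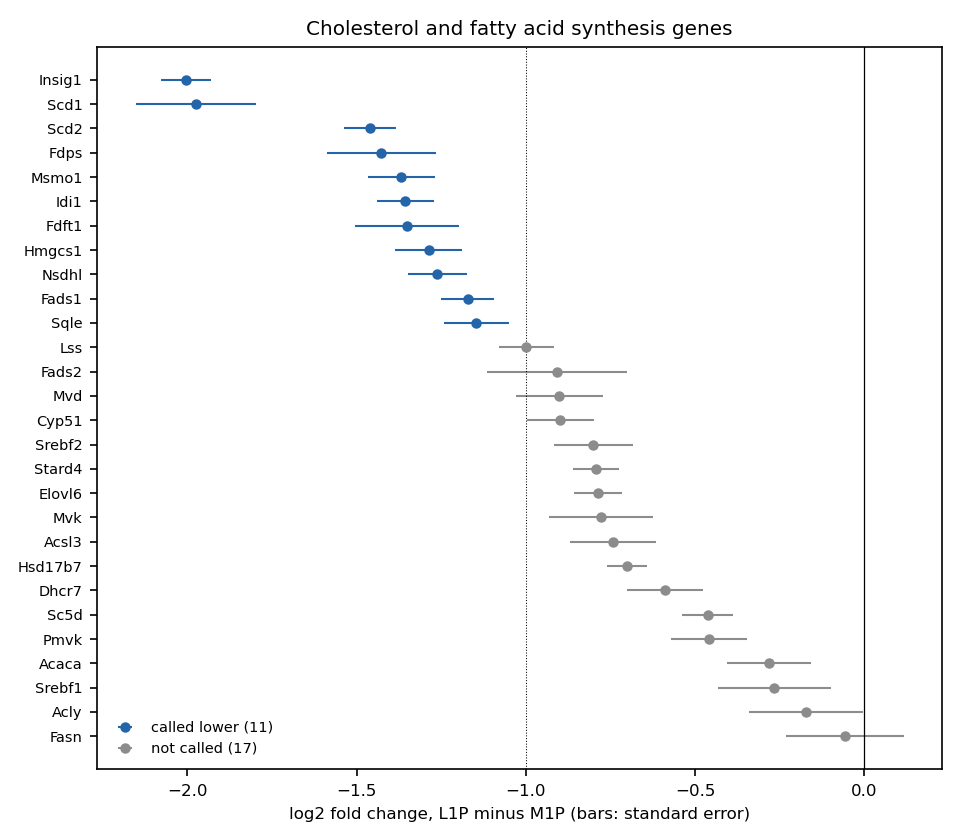
Points show the log2 fold change (L1P minus M1P) of 28 of the 32 members of the cholesterol and fatty acid list, with the standard error of the limma fit as bars. The 11 blue genes were called lower, the 17 gray genes were not, and all 28 points lie left of 0.

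Promoter sequence of the called sterol genes is shown because they moved together. RefSeq windows from 250 bases before to 50 bases after each start (GRCm38.p6) were at hand for 22 of the 33 listed genes and for 5 of the 13 called. The letters CCAAT, on either strand, the core bound by NF-Y, which works beside SREBP at sterol promoters, were found in 19 of the 22 (86.4%) and in all 5 called, against 41.1% of 27025 gene symbols. The sterol response letters TCACNCCAC, again on either strand, were found in 1 of the 22, Hmgcs1, against 1.44% of symbols. The shorter letters CACNCCAC were found in 2 of the 22 (9.1%), against 7.12% of symbols. The symbols include genes that are not expressed here. A match describes the letters, which are the same whatever the level in L1P, and is not evidence of binding. The windows below run 5′ to 3′ along the gene, with CCAAT (or ATTGG, the same letters on the other strand) in capitals, and for each gene the match nearest upstream of the start was taken. They lie at chr13:119690293-119690322 for Hmgcs1, chr13:8885579-8885608 for Idi1, chr5:28071183-28071212 for Insig1, chr8:64733617-64733646 for Msmo1 (minus strand) and chrX:72918488-72918517 for Nsdhl, the others being on the plus strand.
Hmgcs1: gtccccgcctctcATTGGctgaaagcggat
Idi1: ggtccaaggtgccATTGGctggcgaccgac
Insig1: ccgccctcctcccATTGGctccggcggcct
Msmo1: ggagtggggcggaCCAATtacgacaggcga
Nsdhl: aaagactagcctcATTGGgcaaaatcatgc
The sterol response letters of Hmgcs1 lie at chr13:119690203-119690232, in capitals here, with their first base 137 bases before the start.
Hmgcs1: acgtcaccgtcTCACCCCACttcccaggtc

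Copies of these genes carry the same pattern. Of the 2132 members that are processed pseudogenes, 7 were called, beside 1.21% of all genes tested. Of these 7, 6 were lower, and 4 of the 6 match genes of the list or such a copy. RP23-105M20.1 matches Idi1 over its 684 bases at 100% identity and was at 7.83 and 8.52 CPM in L1P and 23.4 and 21.7 CPM in M1P. RP23-78F5.1 matches Fdft1 at 97.4% and was at 15.1 and 15.6 CPM in L1P and 42.4 and 41.3 CPM in M1P, and RP24-318I5.1 matches Fdps at 96.7%, at 14.2 and 12.7 CPM in L1P and 38.7 and 38.5 CPM in M1P. RP24-446O20.4, whose best match is RP24-318I5.1 (96.0%), was at 41.6 and 44.1 CPM in L1P and 119 and 117 CPM in M1P, above the level of Fdps itself. The expectation-maximization step of the deposited values shares reads among such copies, so the level of a gene and its copy cannot be told apart here and the CPM of Idi1, Fdft1 and Fdps are uncertain. In 35 of the 206 called genes the longest match to a transcript of another gene, of at least 150 bases, had at least 95% identity. Shorter matches of a gene were not counted, so more genes can have such a stretch, as Scd1 does with Scd2.

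EMT markers did not move together. The counts of this and the following lists are to be read beside all genes tested, of which 0.742% were called higher and 0.468% lower, and 11.2% were higher and 7.3% lower at an adjusted p under 0.05. Of 36 mesenchymal marker genes, 19 were members, with 2 called, Fn1 and S100a4, both higher. Vim, the intermediate filament vimentin, was at 1219.99 and 1226 CPM in L1P and 1283 and 1288 CPM in M1P, Cdh2, N-cadherin, at 70.5 and 71.8 CPM in L1P and 62.9 and 60.2 CPM in M1P, and Snai1, a repressor of E-cadherin, at 2.69 and 2.62 CPM in L1P and 3.63 and 3.42 CPM in M1P. None of these 3 was called, with log2 fold changes of −0.07, 0.21 and −0.31. Of 42 junction and keratin genes 17 were members and 0 were called (6 had an adjusted p under 0.05 without a fold limit, 1 of them higher). Cdh1, E-cadherin, was at 112 and 108 CPM in L1P and 71.5 and 70.1 CPM in M1P (log2 fold change 0.63, adjusted p = 5.81e-04, limma). Krt8 and Krt18, the paired keratins of simple epithelia, went the other way, with Krt18 at 551 and 546 CPM in L1P and 1053 and 1080.3 CPM in M1P and Krt8 at 669.6 and 679 CPM in L1P and 1214 and 1238 CPM in M1P. Ocln, a tight junction protein, was at 3.75 and 3.36 CPM in L1P and 4.14 and 3.67 CPM in M1P. L1P thus had more fibronectin message than M1P by a call, and more E-cadherin and less of both keratins by adjusted p alone. Krt8 and Krt18 are neighbors on chromosome 15, in the stretch from 80 Mb on where 93.4% of 196 genes were below 0 (below). The part of that stretch in the keratin values was not tested.

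Matrix, adhesion and protease lists held 4 calls, 2 in each direction, beside 1.21% of all genes called. In the collagen list 1 of 9 members was called (Col6a1, higher), in the integrin list 1 of 13 (Itga2, lower) and among laminins and basement membrane genes 0 of 10. Among the proteases and inhibitors 2 of 17 were called, Mmp13 lower and Adamts15 higher, the latter at 2.41 and 2.5 CPM in L1P and 0.733 and 0.709 CPM in M1P. Adamts15 passed the 1 CPM limit through L1P alone, so it could only be higher. The basement membrane proteoglycan Hspg2 was at 121 and 129 CPM in L1P and 68.4 and 70.4 CPM in M1P and nephronectin, Npnt, at 159 and 158 CPM in L1P and 92.5 and 92.5 CPM in M1P, neither called. At an adjusted p under 0.05, 7 of the 17 protease genes were higher and 4 lower. Medians of these 4 lists were between −0.07 and 0.10.

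Of 26 genes reported for lung metastasis of breast cancer cells, 14 were members, 2 were called, and both, Cxcl1 and Vcam1, were higher, beside 0.742% of all genes. The median of the 14 was 0.35 beside 0.03 over all members, and 9 were higher and 1 lower at an adjusted p under 0.05, beside 11.2% and 7.3% of all genes tested. Ccl2, the monocyte chemokine, was the lower member, at 46.4 and 47.5 CPM in L1P and 92.6 and 91.6 CPM in M1P (log2 fold change −0.96), and Spp1, osteopontin, was at 396 and 384 CPM in L1P and 279 and 286 CPM in M1P. In the wider list of chemokines, cytokines and receptors, Cxcl5 was at 206 and 217 CPM in L1P and 116 and 107 CPM in M1P and Csf1, the macrophage growth factor, at 192 and 199 CPM in L1P and 109.5 and 111 CPM in M1P, both short of the fold limit, with 1 of 19 members called higher (Cxcl1) and 1 lower (Il33).

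Interferon and antigen presentation genes that were called were all higher in L1P. Of 57 interferon-stimulated genes 24 were members and 3 were called, all higher, beside 0.742% of all genes: Ly6e, Irf9 and Gvin1. Irf9, a DNA-binding interferon factor, was at 13.8 and 14 CPM in L1P and 6.06 and 6.34 CPM in M1P, and Gvin1, a large GTPase, was at 21.3 and 20.5 CPM in L1P and 8.05 and 8.97 CPM in M1P. Stat2 went the other way at 9.87 and 11 CPM in L1P and 15.6 and 15.6 CPM in M1P without a call, and 4 of the 24 were lower at an adjusted p under 0.05 against 8 higher, beside 7.3% and 11.2% of all genes. Gvin1 is 99.97% identical to its neighbor RP23-454A11.1 over 9005 bases, so both calls may count shared reads. Of 13 antigen presentation members, Psme1, a proteasome activator subunit, and Cd1d1, a lipid-presenting molecule, were called higher. H2-K1, a classical class I gene, was at 15.8 and 15.1 CPM in L1P and 25.4 and 25.8 CPM in M1P, lower without a call.

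Growth factor and guidance pathways shifted by less than the fold limit in most members. Of 43 expressed axon guidance genes, 21 were higher and 5 lower at an adjusted p under 0.05, beside 11.2% and 7.3% of all genes tested, and 2 were called, Ephb6 higher and Sema4f lower. Nrp1, a coreceptor of semaphorins and VEGF, was at 93.3 and 89.9 CPM in L1P and 49.99 and 50.3 CPM in M1P, and Sema3c was at 95 and 96.7 CPM in L1P and 58.1 and 56.7 CPM in M1P. In the EGF, FGF, PDGF and IGF list, Fgfr2 was called higher and Fgf13 lower among 29 members, and Nrg1, the ERBB3 ligand, was at 103 and 106 CPM in L1P and 57.7 and 56.6 CPM in M1P. Erbb3 itself was at 157 and 157 CPM in L1P and 108 and 108 CPM in M1P, against 1.46 and 1.11 CPM in E1KD. Of 38 members of the TGFβ and BMP list 1 was called, Bmp2, while Nodal is not on that list, and of 20 Wnt genes and 16 Notch genes 0, although Notch1 was at 17.3 and 17.1 CPM in L1P and 9.0 and 9.21 CPM in M1P and 8 Notch genes were higher at an adjusted p under 0.05. Bmp2 passed the 1 CPM limit through M1P alone, so it could only be lower. In the neural adhesion and synapse list, Pcdh9 was called higher and Tenm4 lower among 10 members. Ly6a was the 1 call among 15 pluripotency and progenitor factors, 8 of which were higher and 0 lower at that limit.

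Stress, hypoxia and proliferation lists were also compared. Of 36 members of the ATF4 and NRF2 list 2 were called, beside 1.21% of all genes, and 16 were lower and 5 higher at an adjusted p under 0.05, beside 7.3% and 11.2%, with a median of −0.31. Trib3, a pseudokinase induced by ATF4, was called lower at 17.7 and 17.7 CPM in L1P and 37.8 and 37.9 CPM in M1P, Gstm2, a glutathione transferase, was called higher at 7.61 and 8.8 CPM in L1P and 3.44 and 3.1 CPM in M1P, and Psat1, an enzyme of serine synthesis, was at 182 and 179.95 CPM in L1P and 328 and 326 CPM in M1P. Glycolysis and hypoxia genes had 1 call, Car12, which was higher, among 29 members and a median of −0.15. At an adjusted p under 0.05, 7 of the 29 were lower and 1 higher, beside 7.3% and 11.2% of all genes tested. Of the YAP/TAZ and immediate early genes, Egr1 was called higher and Nt5e lower among 33, and of the regulators of vessels Angptl2 was called lower among 12. Mcam, from the mural list, was called higher at 2.41 and 2.89 CPM in L1P and 0.716 and 0.815 CPM in M1P, and Csn3, a casein from the mammary list, lower at 1.18 and 0.835 CPM in L1P and 4.38 and 4.4 CPM in M1P. Mcam passed the 1 CPM limit through L1P alone, so it could only be higher. In the lists of 47 cell cycle genes, 39 respiratory chain genes and 6 Hox genes 0 were called, with medians of 0.11, 0.00 and 0.22, and 7, 1 and 3 of their members passed an adjusted p of 0.05 with no fold limit. In the same 3 lists 13, 2 and 3 members had an unadjusted p under 0.05 (limma).

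A run of neighboring genes on chromosome 14 was higher in L1P. Ordered by position, 18 expressed protein-coding genes in a row, from Pck2 to Khnyn (GRCm38 chromosome 14, 55540266 to 55898775, 359 kb), had a log2 fold change of at least 0.8, and the longest other run in the genome at that limit held 4 genes, the Ly6 genes above. The limit and the run were chosen after the values were seen. In the run 14 of 18 genes were called higher, where 0.742% of all genes were. All 18 were higher at an adjusted p under 0.05, beside 11.2% of all genes tested, and all 18 had libraries that did not overlap, beside 70.5%. The limit of 0.8 in this same comparison fixed most of this, so these counts describe the run and are no test of it. The fold changes were close together: the L1P to M1P ratio of CPM had a median of 2.29, with a range of 2.12 to 3.29 in 17 genes and 5.20 in Ltb4r2, which was at 1.77 and 1.44 CPM in L1P and 0.279 and 0.337 CPM in M1P and passed the 1 CPM limit through L1P alone. A further 13 protein-coding genes of the interval were not members, none above 0.667 CPM.

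The genes of the run have varied roles. Tm9sf1, an endosomal membrane protein, was at 139 and 138 CPM in L1P and 56.5 and 59.9 CPM in M1P (log2 fold change 1.24, SE 0.085), and Pck2, the mitochondrial PEP carboxykinase, was at 91.2 and 91 CPM in L1P and 43 and 42.1 CPM in M1P (log2 fold change 1.08, SE 0.12). Nedd8, a ubiquitin-like protein, was at 70.8 and 74.3 CPM in L1P and 32.8 and 32.6 CPM in M1P, and Tinf2, a telomere protein of shelterin, at 63.1 and 64.2 CPM in L1P and 28.2 and 29.8 CPM in M1P. Khnyn, a ribonuclease-like cofactor of the antiviral protein ZAP, was at 64.3 and 65.3 CPM in L1P and 28.3 and 26.9 CPM in M1P, and Dcaf11, a substrate receptor of ubiquitin ligases, at 54.9 and 54.6 CPM in L1P and 24.8 and 22.9 CPM in M1P. Rabggta, a subunit of the enzyme that prenylates Rab proteins, had the largest log2 fold change, at 15.8 and 16.4 CPM in L1P and 4.73 and 5.03 CPM in M1P (log2 fold change 1.54, SE 0.16). Rnf31, the catalytic subunit of the linear ubiquitin ligase, was at 13.5 and 13.8 CPM in L1P and 5.67 and 6.29 CPM in M1P, and Nop9, a ribosome biogenesis factor, at 42.8 and 44.5 CPM in L1P and 18.7 and 19.8 CPM in M1P. Irf9 and Psme1, counted above in the interferon and antigen presentation lists, are both inside this run. Psme2b, on chromosome 11, was called higher at 43.5 and 42.2 CPM in L1P and 18.4 and 19.1 CPM in M1P and is 99.4% identical over 794 bases to Psme2, which lies inside the chromosome 14 interval and received at most 0.667 CPM, so these reads may belong to either locus.

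Genes on either side of the run gave smaller differences. On the Pck2 side the nearest expressed gene, Dhrs4, was at 5.89 and 6.47 CPM in L1P and 5.99 and 5.95 CPM in M1P, and the 12 genes on that side had a median log2 fold change of 0.07 with 0 called. On the Khnyn side, Mcpt1 was at 3.77 and 3.96 CPM in L1P and 2.48 and 2.13 CPM in M1P (log2 fold change 0.56) and the gene after it, Cenpj, at 8.01 and 7.53 CPM in L1P and 7.05 and 6.66 CPM in M1P, and the median of the 12 was 0.15 with 0 called. In the other comparisons, of which those with M1P or L1P share libraries with this one, the 18 genes had a median log2 fold change of 0.28 in M1P against E1KD (0 called, beside 3.59% of all genes), 1.34 in L1P against E1KD (15 called, beside 4.69%) and 0.02 in E1KD against NMuMG (2 called, beside 9.44%). The last median changed sign with the E1KD library, to −0.17 (2 called) without E1KD replicate 1 and 0.17 (3 called) without E1KD replicate 2. For the difference between the L1P to M1P step and the E1KD to NMuMG step, 11 of 18 were called, 15 without E1KD replicate 1 and 6 without E1KD replicate 2. The run was chosen by the L1P to M1P step, so the counts for the difference of steps describe it and are no test. DNA copy number was not measured, and its part in the result was not tested.

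**Figure D4:**
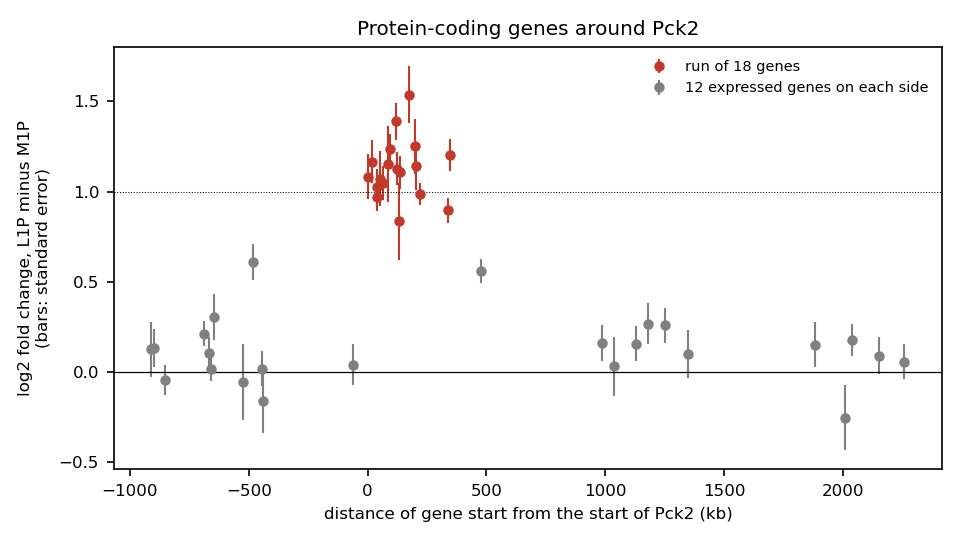
Points show the log2 fold change (L1P minus M1P, bars: standard error) of expressed protein-coding genes by the distance of their start from the start of Pck2, in kb. The 18 red genes sit between 0.83 and 1.54, and the 24 gray neighbors sit between −0.25 and 0.61.

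Whole chromosomes and long stretches differed by smaller amounts. Over the 10699 protein-coding members on chromosomes 1 to 19 and X, the median log2 fold change was 0.05 and 59.6% of genes were above 0. On chromosome 19 the median of 385 genes was −0.28, 87.5% were below 0, and 11 genes were called lower and 1 higher. In each of the 4 pairs of an L1P and an M1P library that median lay between −0.29 and −0.28. Chromosome 15 changed along its length: the 230 genes below 80 Mb had a median of 0.01, and the 196 genes from 80 Mb on had a median of −0.34 with 93.4% below 0. Chromosome 10 did so in the other direction, with a median of 0.33 and 91.5% above 0 over 141 genes below 60 Mb, against 0.06 over the 394 genes beyond. On the X, 22 genes between 140 and 150 Mb had a median of 0.39. Of 246 windows of 10 Mb with at least 10 genes, 7 had a median above 0.3 and 6 below −0.3, and all 13 lie in the stretches just named. These stretches were chosen after the values were seen. In E1KD against NMuMG the same stretches had medians of 0.16 (chromosome 10), 0.45 (chromosome 15) and −0.10 (chromosome 19), and 0.72 for the X stretch, beside 0.25 over all.

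**Figure D5:**
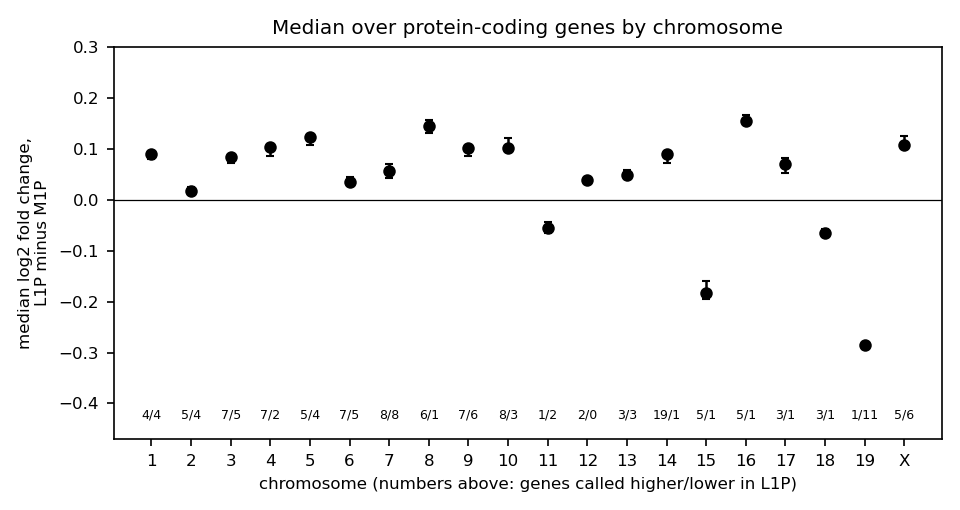
Points give the median log2 fold change (L1P minus M1P) over protein-coding genes of each chromosome, bars the range of that median over the 4 pairs of libraries, and the numbers above the axis the genes called higher and lower. Chromosomes 19 (−0.28) and 15 (−0.18) lie below the rest, and chromosome 14 has 19 genes called higher.

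Genes called lower on chromosome 19 included Scd1, Scd2 and Fads1 of the lipid list and Il33, Gcnt1 and Ms4a4d from other roles. As3mt, an arsenic methyltransferase, was also there, at 0.334 and 0.485 CPM in L1P and 2.69 and 2.5 CPM in M1P, and 0 reads on it were found in the E1KD libraries. Their log2 fold changes were −1.05 or below. A call needs a log2 fold change of 1 or more in size, so a change larger than the shift of the chromosome was fixed by the call. Gda, guanine deaminase, was the 1 gene called higher on this chromosome, at 1.43 and 1.13 CPM in L1P and 0.0001 and 0.0178 CPM in M1P, where 0.0001 is the constant that stands for 0 reads.

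The 3195 members not listed simply as protein-coding held 23 calls (0.72%, beside 1.21% of all genes tested), 13 higher and 10 lower. Of these 23, 1 is a second entry of a protein-coding gene, Rhox5. The lincRNA Lncenc1, the name under which the table holds Platr18, was at 76.9 and 73.3 CPM in L1P and 25.7 and 26.2 CPM in M1P (log2 fold change 1.5, SE 0.092). RP23-381B19.2, a processed transcript on chromosome 11 now named AI662270, had the largest log2 fold change of these 23, at 11.8 and 12.6 CPM in L1P and 1.16 and 1.13 CPM in M1P (log2 fold change 2.62, SE 0.055). Its neighbor RP23-381B19.3 was at 6.88 and 7.26 CPM in L1P and 0.878 and 0.692 CPM in M1P, and they share 316 identical bases of transcript, so their calls are not separate. The antisense RNA RP23-100B18.3 (Gm13544) was at 2.81 and 3.61 CPM in L1P and 0.594 and 0.638 CPM in M1P. In the pseudogene RP23-402H19.3, 99.5% identical to Ass1 over 1240 bases, the levels were 36.5 and 35.1 CPM in L1P and 14 and 14.4 CPM in M1P. Rhox5, a homeobox gene of the X, is listed once on the X and again on a patch scaffold, at 10.3 and 10.7 CPM in L1P and 2.83 and 3.15 CPM in M1P for the X entry, and the entries share reads. Another member overlaps 39 of the called genes, on the same or on the opposite strand. With no strand setting stated for the counting, reads from the shared bases could belong to either gene.

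The earlier step of the model, from NMuMG to E1KD, shares no library with this comparison. Of the 206 genes called in L1P against M1P, 100 (48.5%) were also called in E1KD against NMuMG, where 9.44% of all genes tested were called, and these are 7.56% of the 1323 members called there. In 72 of the 100 the direction was the same, 50 higher and 22 lower at both steps, and in 28 it was opposite, beside 6.44% of all genes higher and 2.99% lower in E1KD. Fn1, S100a4, Ly6a, Ly6e, Cyp26b1 and Col6a1 were higher at both steps, and Il33, Itga2, Hmgcs1, Scd2 and Fads1 lower at both. These need not be steady rises or falls, since the change from E1KD to M1P lies between the steps. In M1P against E1KD, Cyp26b1 was not called (log2 fold change −0.35). Of the 32 cholesterol and fatty acid genes 0 were called there, beside 3.59% of all genes. E1KD was at 206 and 119 CPM for Fn1, 544 and 313 CPM for S100a4 and 39.9 and 29.9 CPM for Col6a1, and M1P was called lower than E1KD for these 3 and for Ly6a and Ly6e, with log2 fold changes of −1.59 (Col6a1) to −3.37 (Ly6e). S100a4 was also called lower in L1P than in E1KD (−1.44), and of the 6 higher genes Cyp26b1 alone was called higher there (1.30). M1P was called higher than E1KD for Il33 (1.80) and Itga2 (1.39). Magea8, Flnc, Sema4f, Fgf13 and Bmp2 were higher in E1KD than in NMuMG and lower in L1P than in M1P, and Klhdc7a and Aqp1 had the reverse order. The size of the step differed for many: the difference between the log2 fold changes was called for 121 of the 206 genes, against 10.9% of all genes tested. The 206 were chosen by 1 of the 2 fold changes in this difference, so this share describes them and is no test. For Fn1 the earlier step was larger, with a log2 fold change of 3.76, and for Insig1 and Scd1 the later step was the larger fall, against −0.94 and −0.26 at the earlier step. The 32 cholesterol and fatty acid genes had a median of −0.33 in E1KD against NMuMG with 5 called, and in 7 of the 32 the difference between the steps was called. These last values depend on the E1KD library: without E1KD replicate 1 the median was −0.54 with 9 called and 3 differences called, and without E1KD replicate 2 it was −0.14 with 3 and 13. The overlap of 100 genes was 100 and 96 in those fits, in which 8.25% and 18% of all genes were called at the earlier step. With TGFβ treatment of NMuMG, where 13.5% of all genes were called, 63 of the 206 (30.6%) were called, 27 in the same direction and 36 in the opposite one. For the Platr18 overexpression clones against empty vector, 30 of the 206 were called, beside 1.46% of all genes, 15 in each direction relative to L1P. After silencing of Platr18 in E1KD, 42 of the 206 were called, beside 1.48% of all genes, 10 in the same direction and 32 in the opposite one. Among the 28 genes higher in L1P and lower after that silencing (0.994% of all genes were lower there) were Ly6e, Ly6a, Fn1, S100a4, Cyp26b1, Fgfr2 and Lncenc1 itself.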

How the data were processed

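RNA of 20 libraries, 2 per group in 10 groups, had been sequenced. The deposited table holds CPM per gene: per the study's methods and the submitters' processing notes, the authors aligned reads to GRCm38.p6 with Bowtie2 (2.2.5), and quantified them against M18 gene models with the expectation-maximization step of Partek. That the values are CPM was read from the table itself, where each library's low values are steps of 1 read, and every value carries a constant of 1e-04, which stands for 0 reads. Shared reads make copies uncertain, and the strand setting of the counting is not given in the sources used here.

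From this table, log2(CPM + 1) was fitted with limma (3.58.1, R 4.3.3), with 1 mean per group, trended variance and 10 residual degrees of freedom, over the 17106 genes at 1 CPM or more in 2 of 20 libraries. Adjusted p-values are Benjamini-Hochberg values over all of them. Tested on simulated data of the L1P and M1P comparison, the fit called 200 of 200 changed genes and 4 of 16906 unchanged ones. The changed genes were drawn from the better expressed ones and given changes above the fold limit. Recovery of low genes and of changes near that limit was therefore not tested. Values under 100 reads were whole reads (tolerance 0.05 read) in 88.9% to 97.4% of cases per library. Copies were sought with BLAST (2.17.0).

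The genes compared and the gene lists were chosen with earlier results of these data known, and no list was tested as a set. Genes named are, among those with libraries that do not overlap, the called protein-coding genes with the largest changes (12 per direction), the smallest p (8) and the highest CPM (8), the 5 largest changes of other types per direction, each list's called members and up to 4 others, and 10 genes of the study's own questions. Genes of the chromosome 14 run and its neighbors, and Acaca, Acly, Fasn, Srebf1, Srebf2, Aqp1, Atoh8, Sorl1, Ces2g, Hs6st2, Gda, Psme2b, RP23-105M20.1 and RP23-402H19.3, were named after their values were seen. Some genes that these rules name are not reported here. Alternatives to each choice are described in the closing section.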

Additional observations from a re-analysis of the deposited data

How the results depend on the processing

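The number added before the log moved the counts most: with 0.1 added, 356 genes were called (219 higher, 137 lower, 313 protein-coding), and with 5 added, 69 (43 higher, 26 lower, 61 protein-coding, and 9 of the 18 genes of the chromosome 14 run). Of the 206 genes called with 1 added, 205 and 69 were among these. Genes with a mean of at least 5 CPM gave 118 calls, 75 higher and 43 lower, 107 of them protein-coding, because fewer genes were tested. Calls among the cholesterol and fatty acid genes were 15 with 0.1 added, 11 with 5 added and 12 with that filter. Other filters, rescaling, fits on fewer libraries, untrended variance and a call by adjusted p gave 191 to 231 calls, and no call changed direction. Leaving out 1 library at a time gave 204 to 209 calls, of which 193 to 196 were among the 206. Chosen after seeing the data, fits without either E1KD library called 207 genes each, the 206 among them, but moved the earlier step, where 1614 genes were called with both libraries, 1412 without E1KD replicate 1 and 3074 without E1KD replicate 2. The replicate numbers do not pair the libraries (correlation of deviations 0.011), and a fit with the replicate block called the same 206 genes. Depth limits genes near 3 reads, and with 2 libraries per line the precision rests on the spread of all groups.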
